A study of Mus musculus with 4 samples.

Results

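Smooth muscle spots of the mouse ovary are the positions on a spatial array whose RNA held the largest share of smooth muscle transcripts. They were selected on measured values: among 4134 spots with at least 1000 unique molecules (UMIs), the UMIs of Acta2, Myh11, Tagln, Des and Cnn1 were summed, scaled to 10000 UMIs of the spot, and the top 5% over all capture areas were taken. This gave 207 spots of 4191 in all. A spot covers several cells, so that a smooth muscle spot is a small region rich in these transcripts and not a muscle cell.

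Smooth muscle cells contract when calcium entering through voltage-gated channels activates myosin light chain kinase, and they relax when potassium channels and the nitric oxide and cyclic GMP pathway lower that calcium. Their actin and myosin filaments are anchored in dense bodies and at adhesion plaques, and many of their genes are switched on by the serum response factor SRF through the DNA motif called the CArG box. In the ovary such cells form the walls of arteries and veins, lie in the outer theca of follicles and run through the stroma and the attached mesovarium and ligaments.

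The tissue came from naturally aged (15 to 16 months) and young (3 to 4 months) outbred CD-1 females, for which the labels name no allele and no treatment. Ovaries of 4 females of each age were frozen and cut, each of 4 capture areas held 1 aged and 1 young section, and the sections are numbered here by capture area. The comparison by age asks how the ageing ovary differs from the young one. Eligible spots numbered 299, 634, 249 and 396 in aged sections 1 to 4, and 530, 730, 535 and 761 in young sections 1 to 4. Section totals ran from 2777948 to 9506517 UMIs in aged and from 9702600 to 21619232 UMIs in young sections. Capture area 3 stood apart from the other areas against its age labels. The summed oocyte list had 390.9 CPM in the other spots of aged section 3 against 29.3 to 36.2 CPM in those of the other aged sections, and 33.6 CPM in young section 3 against 155 to 525 CPM in the other young sections. The B and plasma cell list had 56.2 CPM in aged section 3 against 147 to 1556 CPM in the other aged sections, and 571 CPM in young section 3 against 25.6 to 144 CPM in the other young sections. Whether the sides of that area were exchanged was not tested, and the age comparisons are given with and without it. The barcodes name fixed array positions, and 1358 of 2204 were used in more than 1 capture area.

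The smooth muscle spots had scores of 39.68 to 412.8 UMIs per 10000, with a median of 55.95, against a median of 5.14 in the other spots. The lowest pair inside the threshold had 39.677 and 39.680 and the highest pair outside it 39.659 and 39.591. There was no gap at the threshold: 30 smooth muscle spots lay within 10% above the lowest score and 35 other spots within 10% below it. Behind the score of a smooth muscle spot stood a median of 68 UMIs of the 5 genes, and 13 spots had under 20.

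Aged sections 1 to 4 held 13, 17, 0 and 23 smooth muscle spots, and young sections 1 to 4 held 64, 25, 22 and 43. These were 4.35, 2.68, 0 and 5.81% of the eligible spots in aged sections, against 12.1, 3.42, 4.11 and 5.65% in young sections. Young section 1 alone gave 30.9% of all smooth muscle spots. Aged section 3 had none of 249 spots, which allows a share of up to 1.205% by counting error alone, and its highest score was 32.87. The mean share was 3.21 ± 2.49% in aged and 6.32 ± 3.95% in young sections (SD, n = 4 each), and the ages overlapped (difference -3.11 percentage points, exact two-sided permutation test, p = 0.286, where the smallest p possible is 0.0286). Without young section 1 the difference was -1.19 percentage points, and without capture area 3 it was -2.77 (4.28 ± 1.56% in aged and 7.05 ± 4.49% in young sections, n = 3 each, exact permutation p = 0.5, in a design that cannot reach 0.05).

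**Figure D1:**
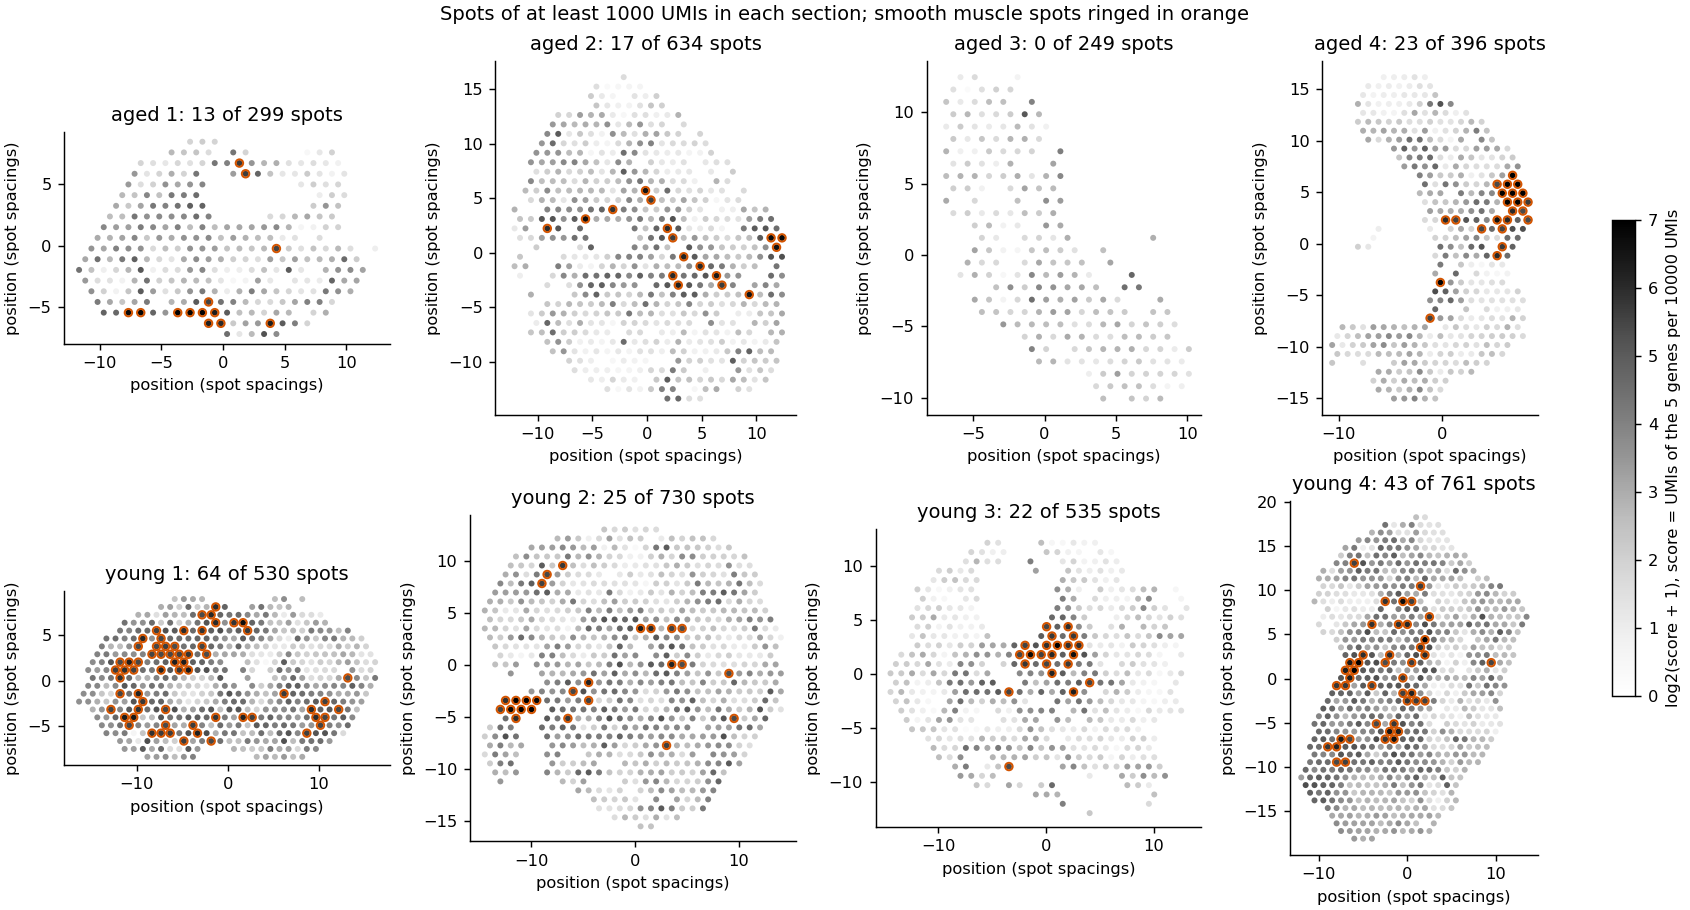
Each panel shows the eligible spots of a section at their array positions, in units of the spacing between spots, with aged sections above and young sections below; grey gives log2(score + 1) and orange rings mark the smooth muscle spots. The spots gather in patches, the largest with 16 spots in aged section 4 and 18 spots in young section 3, and aged section 3 has none.

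Acta2, the actin of smooth muscle thin filaments (chromosome 19, 34241090 to 34255590, build mm10), had 3388, 3451 and 3122 CPM (counts per 1000000 UMIs of the summed spots) in the smooth muscle spots of aged sections 1, 2 and 4, and 3187, 2670, 3057 and 3015 CPM in those of young sections 1 to 4. The level was much alike in every section. Acta2 was detected in all 207 spots and gave 45.0% of the UMIs behind the scores. Since 1 cut on these scores served all sections, its evenness and detection are in part set by the choice. Myh11, the smooth muscle myosin heavy chain (chromosome 16, 14194535 to 14291372), had 766, 1063 and 974 CPM in aged, and 874, 785, 1035 and 694 CPM in young sections, with a wider spread relative to its level. Tagln, which encodes the actin-binding protein transgelin (chromosome 9, 45929619 to 45936058), had 3028, 1655 and 2850 CPM in aged and 1009, 1524, 1508 and 2527 CPM in young sections.

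Des and Cnn1 were far less even. Des, the intermediate filament protein desmin that links dense bodies (chromosome 1, 75360329 to 75368579), had 1008, 336 and 2038 CPM in the smooth muscle spots of aged sections 1, 2 and 4, and 55.9, 1101, 181 and 484 CPM in those of young sections 1 to 4. It was found in 151 of the 207 spots. Cnn1, the actin-binding protein calponin (chromosome 9, 22099216 to 22109630), had 987, 281 and 1000 CPM in aged and 223, 741, 190 and 546 CPM in young sections. The sections low in Des were also low in Cnn1. In the other spots of these 7 sections Acta2 averaged 340 ± 155 CPM, Des 28.8 ± 9.21 CPM and Cnn1 29.8 ± 12.6 CPM (SD). These 5 genes chose the spots, so that the differences between smooth muscle and other spots describe the choice and were not tested.

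**Figure D2:**
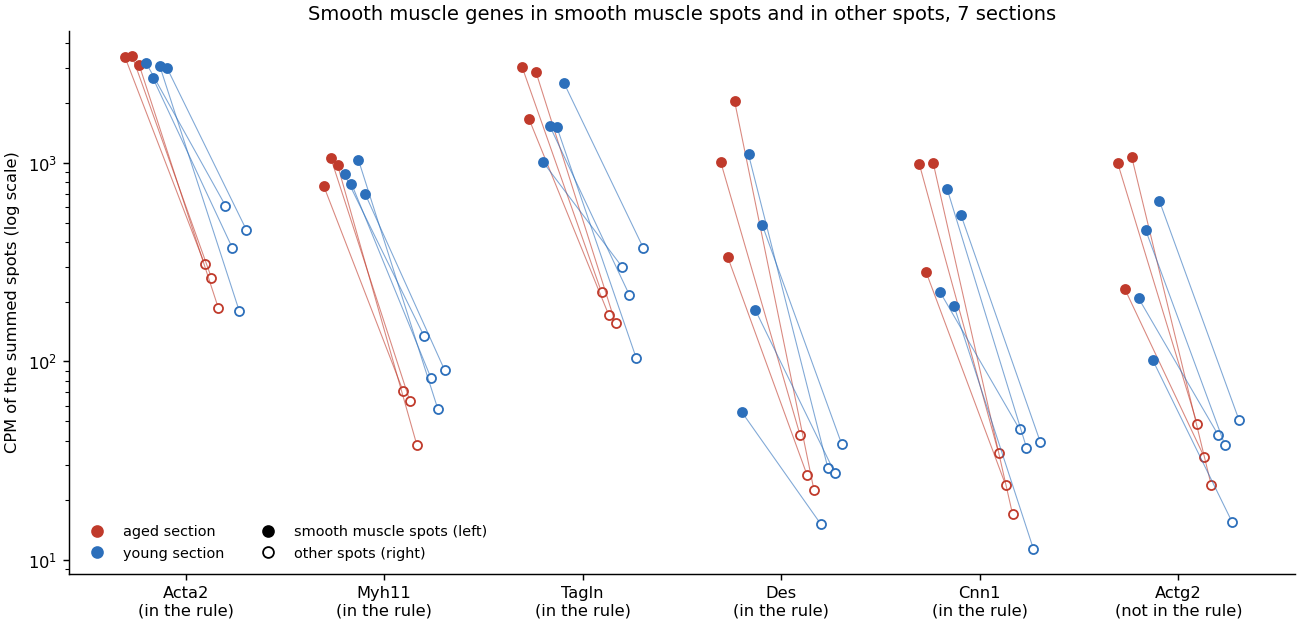
Points give CPM, on a log axis, of the summed smooth muscle spots (filled, left) and other spots (open, right) of each of 7 sections, joined by a line within a section, in red for aged and blue for young sections. Acta2 (2670 to 3451 CPM) and Myh11 (694 to 1063 CPM) vary less over sections than Des and Actg2, where Des spans 55.9 to 2038 CPM and Actg2, which the rule did not use, 102 to 1071 CPM. The levels of the rule genes in smooth muscle spots are in part set by the choice.

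Genes outside the rule were compared between the smooth muscle spots and the other spots of the same section, over the 7 sections with at least 5 smooth muscle spots. Of 11923 genes tested, 1100 were higher (9.23%) and 1161 lower (9.74%) in smooth muscle spots, and the median log2 fold change was -0.02 (edgeR quasi-likelihood test with section as a block, Benjamini-Hochberg adjusted p below 0.05). In bulk sums of this kind, more cells of a type and more RNA per cell cannot be told apart. Scaling by library size alone gave 1470 higher and 832 lower genes, so that 63.9% of calls were higher, against 48.7% with the scaling used here. Smooth muscle spots were also shallower. The total UMIs of a spot are the divisor of its score, so that depth entered the choice of spots, and its part in this difference was not tested. The section medians averaged 10748 ± 3422 UMIs in smooth muscle spots and 18439 ± 5328 UMIs in other spots, and were lower in 7 of 7 sections (exact sign-flip permutation test over sections, n = 7, p = 0.0156, the smallest possible, adjusted p = 0.0208 over 4 measures). Between spots of middle depth, a restriction chosen after seeing the data, with 7470.5 to 17100.5 UMIs, 301 genes were higher and 222 lower of 8791 tested, and 510 of these 523 were also called over all spots.

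The spots carried smooth muscle transcripts beyond the genes that chose them. Genes that share cells with the rule genes are enriched through the choice of spots, so that the test asks how evenly this held over sections. Of 20 contractile genes outside the rule, all of which passed the filter on low counts, 17 were higher in smooth muscle spots and 1 was lower, and their median log2 fold change was 1.28. Actg2, the gamma actin of enteric and other visceral smooth muscle (chromosome 6, 83512905 to 83536265, build mm10), had the largest fold change. It had 992, 232 and 1071 CPM in the smooth muscle spots of aged sections 1, 2 and 4, and 208, 459, 102 and 641 CPM in those of young sections 1 to 4. In the other spots it had 48.5, 33.1 and 24.0 CPM in aged and 42.8, 37.8, 15.6 and 50.9 CPM in young sections, so that every sum of smooth muscle spots lay above every sum of other spots (log2 fold change 3.55, SE 0.24, adjusted p = 3.16e-11).

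Myl9, the regulatory myosin light chain of smooth muscle, averaged 1949 ± 391 CPM in smooth muscle spots and 254 ± 106 CPM in other spots (log2 fold change 2.94, SE 0.17, adjusted p = 2.40e-12). Tpm2, the beta tropomyosin, averaged 637 ± 177 CPM, against 90.8 ± 27.9 CPM in other spots (log2 fold change 2.72, SE 0.16, adjusted p = 2.40e-12). Both were higher in 7 of 7 sections. Lmod1, which starts actin filaments in smooth muscle, Csrp1, a LIM-domain protein of the actin cytoskeleton, and Mylk, the light chain kinase, rose by log2 fold changes of 2.53, 2.29 and 2.05. Cnn3 and Tagln2, the relatives of calponin and transgelin found in many cell types, did not pass (log2 fold changes 0.22 and 0.26, adjusted p = 0.168 and 0.102). Tpm4, a tropomyosin of non-muscle cells, was the lower gene, at 208 ± 28.0 CPM in smooth muscle and 267 ± 33.4 CPM in other spots (log2 fold change -0.45, SE 0.10, adjusted p = 0.00228). At middle depth 15 of 20 genes were higher and none was lower.

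The CArG box is shown in the stretches before the starts of a few of these genes, because SRF binds that motif in smooth muscle promoters. It was searched in the 250 bases upstream of each start by its consensus, which reads alike on both strands. A box was present in 1.47% of 32851 promoters of mouse genes, and a box with 1 substitution in its core of A and T in 7.25%. Of 22 promoters of the contractile list 3 held a box, as did 7 of 33 of the scaffold list, 0 of 24 of the signalling list and 1 of 16 of the regulator list, each described next, and promoters of 1 gene can overlap. The sequences are RefSeq's, build GRCm38.p6, 5′ to 3′ on the strand of the gene, with each box, whole or with 1 substitution, in capitals. Acta2 (chr19:34255374-34255487, minus strand) held 2 boxes with 1 substitution, Myl9 (chr2:156775273-156775404, plus strand) 1 whole box and 1 with a substitution, and Cnn2 (chr10:79988514-79988583, plus strand), Myl6 (chr10:128493020-128493089, minus strand) and Fhl1 (chrX:56779551-56779620, plus strand) 1 whole box each, while Srf itself (chr17:46556185-46556274, minus strand) held 2 whole boxes.
Acta2: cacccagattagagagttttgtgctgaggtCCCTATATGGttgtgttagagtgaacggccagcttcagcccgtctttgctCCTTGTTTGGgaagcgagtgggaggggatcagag
Myl9: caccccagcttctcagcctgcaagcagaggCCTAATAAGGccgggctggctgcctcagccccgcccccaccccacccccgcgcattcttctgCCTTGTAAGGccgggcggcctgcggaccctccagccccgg
Cnn2: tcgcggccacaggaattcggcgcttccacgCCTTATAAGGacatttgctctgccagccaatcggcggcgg
Myl6: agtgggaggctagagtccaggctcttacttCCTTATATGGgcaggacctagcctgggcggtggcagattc
Fhl1: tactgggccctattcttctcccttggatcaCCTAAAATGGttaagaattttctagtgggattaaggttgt
Srf: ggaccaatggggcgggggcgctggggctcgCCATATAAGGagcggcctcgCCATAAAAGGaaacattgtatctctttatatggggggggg

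A match is a run of letters and not a shown binding site. Of the printed genes Acta2 was not tested and the others were higher in smooth muscle spots, Cnn2 by a log2 fold change of 1.52, Myl6 by 0.92, Fhl1 by 1.77 and Srf by 0.97. A box did not go with a higher level in each case. Of the scaffold genes with a whole box, Fhl1 was higher, Vcl, Dmd and Fhl2 did not pass (log2 fold changes 0.28, 0.31 and 0.26), and Ldb3 was not tested. The same windows of Des and Cnn1 held no box of either kind.

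Genes that anchor the filaments rose as well. Of 26 genes of dense bodies, adhesion plaques and the membrane scaffold, 22 passed the filter on low counts, 15 were higher and none was lower (median log2 fold change 0.98). Pdlim3, a PDZ and LIM protein that binds alpha-actinin, had 288, 104 and 312 CPM in the smooth muscle spots of aged sections 1, 2 and 4, and 59.7, 116, 97.4 and 226 CPM in those of young sections 1 to 4. In the other spots it averaged 9.63 ± 4.84 CPM, and every section was higher in smooth muscle spots (log2 fold change 3.95, SE 0.20, adjusted p = 3.04e-13). Jph2, which couples the surface membrane to calcium stores, Synpo2, an actin-bundling protein, and Itga7, a laminin-binding integrin chain of muscle, rose by log2 fold changes of 2.77, 2.71 and 2.37. The 7 tested genes that did not pass had log2 fold changes between -0.21 (Pdlim5) and 0.42 (Synm), and included the focal adhesion protein gene Vcl (0.28, adjusted p = 0.118) and the dystrophin gene Dmd (0.31, adjusted p = 0.309). Ldb3, Sgca and Sgcd, for example, had 15, 8 and 4 UMIs in all smooth muscle spots and were not tested. At middle depth 8 of 19 scaffold genes were higher.

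Genes of excitation and relaxation were split. Of 24 on the list 18 were tested, 10 were higher and 1 was lower (median log2 fold change 0.56). Pln, which encodes phospholamban, the brake on the calcium pump of the sarcoplasmic reticulum, had 10.3, 12.2 and 19.5 CPM in the smooth muscle spots of aged sections 1, 2 and 4, and 7.79, 22.2, 78.9 and 20.7 CPM in those of young sections 1 to 4. It rested on 58 UMIs, and young section 3 stood above the rest. In other spots it averaged 1.34 ± 0.45 CPM (log2 fold change 3.99, SE 0.41, adjusted p = 5.02e-08).

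The large-conductance potassium channel moved in opposite directions by subunit. Kcnmb1, its smooth muscle beta subunit, averaged 55.0 ± 24.5 CPM in smooth muscle spots and 4.65 ± 2.05 CPM in other spots (log2 fold change 3.30, SE 0.29, adjusted p = 3.34e-09). Kcnma1, its pore-forming subunit, averaged 4.49 ± 2.03 CPM in smooth muscle spots, from 14 UMIs, and 14.8 ± 8.53 CPM in other spots, and was lower in 7 of 7 sections (log2 fold change -1.53, SE 0.35, adjusted p = 0.00228). Mrvi1, a target of cyclic GMP signalling at calcium stores, and Cacna1c, the pore of the voltage-gated L-type calcium channel, were higher, with log2 fold changes of 1.34 and 1.31. The oxytocin receptor gene Oxtr had 36.8 ± 15.5 CPM in smooth muscle spots and 53.9 ± 38.96 CPM in other spots and did not pass (log2 fold change -0.18, adjusted p = 0.630). The muscarinic receptor genes Chrm2 and Chrm3 had no UMI in the smooth muscle spots. At middle depth 4 of 15 signalling genes were higher and none was lower.

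Among 18 symbols for regulators of muscle genes, of which 16 were in the tables and 13 were tested, 6 were higher and 1 was lower (median log2 fold change 0.37). Notch3, a receptor that sets the fate of arterial smooth muscle, had 46.3, 140 and 90.9 CPM in the smooth muscle spots of aged sections 1, 2 and 4, and 61.0, 34.6, 181 and 88.1 CPM in those of young sections 1 to 4, against 28.2 ± 6.81 CPM in other spots (log2 fold change 1.48, SE 0.18, adjusted p = 8.90e-07). Its ligand gene Jag1 rose by a log2 fold change of 1.35, its target Heyl by 0.50, and the LIM protein gene Tgfb1i1 by 1.39. Gata6, a transcription factor of vessels and of steroid cells, was lower (log2 fold change -0.50, SE 0.15, adjusted p = 0.0218). The SRF cofactors Mrtfa and Mrtfb did not pass (log2 fold changes 0.15 and 0.23, adjusted p = 0.613 and 0.532). Myocd, the cofactor of differentiated smooth muscle, gave 6 UMIs and was not tested. At middle depth 3 of 12 were higher and none was lower.

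**Figure D3:**
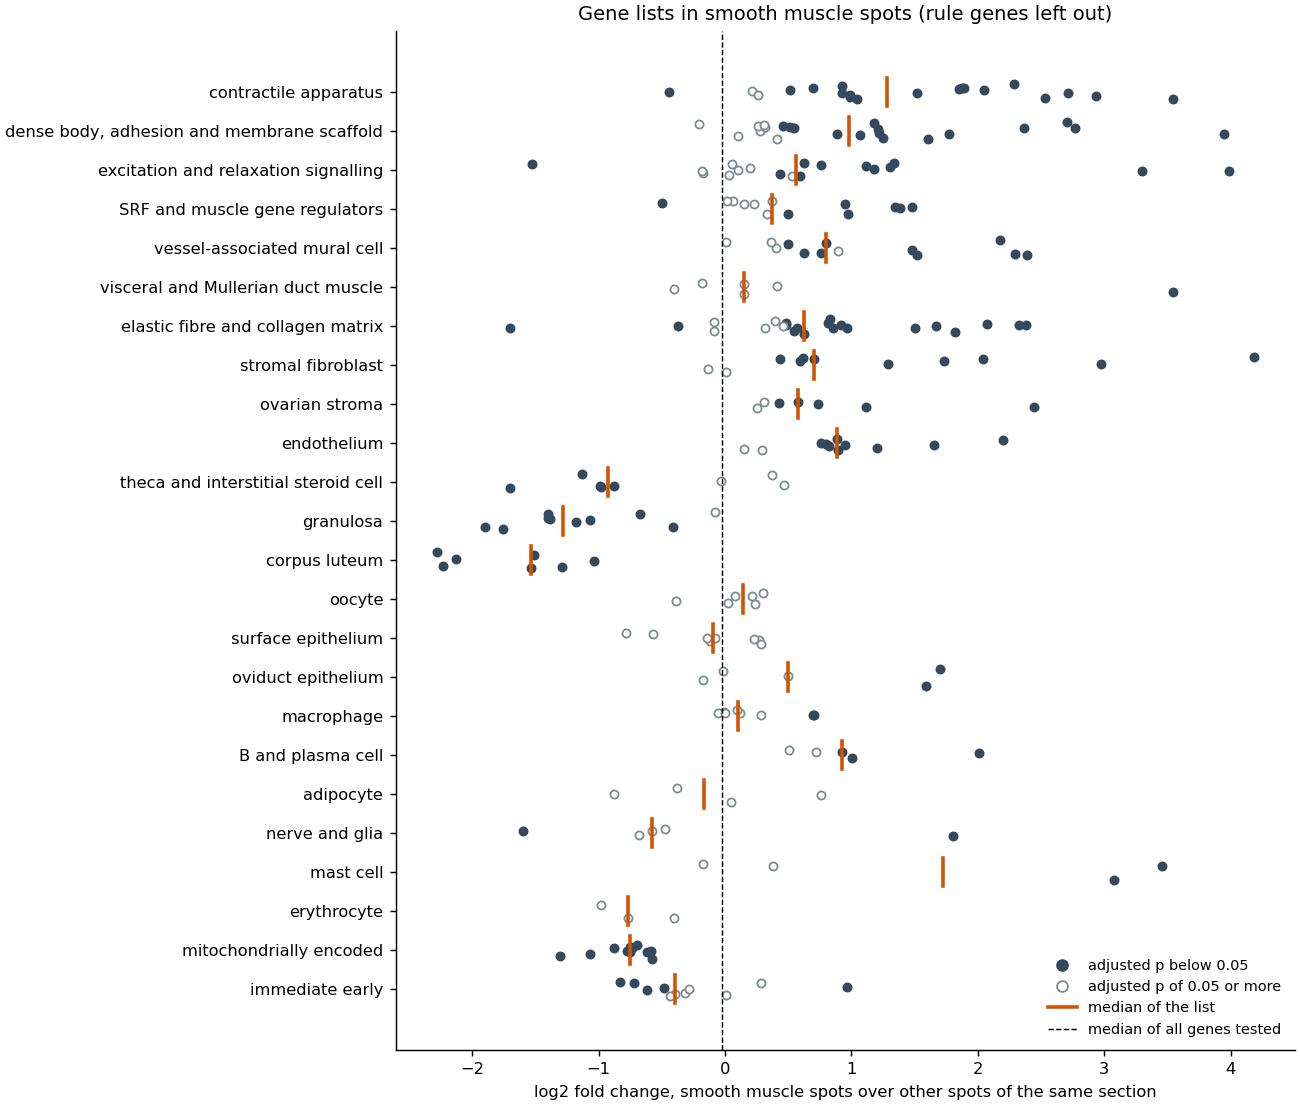
Each point is a gene of the list on its row, placed by its log2 fold change between smooth muscle spots and other spots of the same section (filled where the adjusted p was below 0.05), with list medians in orange and the median of all genes as a dashed line. The medians of the muscle, vessel and stroma lists lie to the right of it, and those of the granulosa, corpus luteum and mitochondrially encoded lists to the left.

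The smooth muscle spots were also richer in vessel and connective tissue transcripts. Of 11 endothelial genes 9 were higher and none was lower (median log2 fold change 0.89), also at middle depth. Cldn5, which seals endothelial junctions, averaged 254 ± 184 CPM in smooth muscle spots and 69.7 ± 30.4 CPM in other spots (log2 fold change 1.65, SE 0.14, adjusted p = 1.81e-09). Of 13 genes of mural cells, the smooth muscle cells and pericytes of vessels, 9 were higher and none was lower (median log2 fold change 0.80). Among them Mcam, an adhesion molecule, rose by a log2 fold change of 2.29 and Gja4, the gap junction protein of arteries, by 2.18, while the pericyte receptor gene Pdgfrb averaged 120 ± 42.7 CPM in smooth muscle and 116 ± 34.9 CPM in other spots and did not pass (adjusted p = 0.971). At middle depth 5 of 10 mural genes were higher. Of 13 genes listed for visceral and Mullerian duct muscle 6 were tested, of which Actg2 alone was higher and none was lower (median log2 fold change 0.15).

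Of 11 stromal fibroblast genes tested 9 were higher and none was lower (median log2 fold change 0.71), against 5 of 9 at middle depth. Gsn, which severs actin filaments, averaged 726 ± 227 CPM, against 162 ± 31.9 CPM in other spots (log2 fold change 2.04, SE 0.14, adjusted p = 2.85e-11). Of 7 ovarian stroma genes 5 were higher and none was lower (median log2 fold change 0.58). At middle depth 1 of 7 was higher, with a median log2 fold change of 0.41. Ccl21a, a chemokine gene whose reads may be shared with near-identical copies, averaged 1462 ± 697 CPM in smooth muscle and 252 ± 121 CPM in other spots (log2 fold change 2.44, SE 0.15, adjusted p = 6.87e-12). Of 23 elastic fibre and collagen genes tested 16 were higher and 2 were lower (median log2 fold change 0.63), against 10 higher and 1 lower of 22 at middle depth. The fibrillar collagen genes Col1a2 and Col3a1 rose by 0.63 and 0.48. Sparc, a matrix protein that binds collagen, was lower at -0.37, and Tnc, the matrix protein tenascin C, at -1.70, singled out after its value was seen.

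Steroid and follicle transcripts were lower. Of 7 corpus luteum genes 7 were lower (median log2 fold change -1.54), of 10 granulosa genes tested 9 (median -1.28) and of 8 theca and interstitial genes 5 (median -0.93), and none was higher in these lists. At middle depth 6 of 7 corpus luteum, 3 of 7 granulosa and 4 of 7 theca genes were lower. Akr1c18, which breaks down progesterone, averaged 1198 ± 691 CPM in smooth muscle spots and 5351 ± 2851 CPM in other spots (log2 fold change -2.23, SE 0.16, adjusted p = 8.35e-11). Cyp11a1, which starts steroid synthesis, still averaged 4651 ± 990 CPM, against 8714 ± 1526 CPM in other spots (log2 fold change -0.99, SE 0.13, adjusted p = 1.38e-06). No smooth muscle spot was among the top 5% of spots for the theca, granulosa or corpus luteum list, which allows a share of up to 1.45% for each by counting error alone. By the same cut 73 of the 207 were high for stromal fibroblast genes, 69 for mural genes, 66 for endothelial genes and 63 for the visceral and Mullerian duct muscle list. Actg2, also on the contractile list, was the only gene of that last list past the test, and its part in the 63 was not tested.

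Among the other marker lists, the oocyte list (0 of 6 tested), the surface epithelium list (0 of 8) and the adipocyte list (0 of 4) had no gene past the test, and no gene of the skeletal muscle list passed the filter, at a summed 11.7 to 38.95 CPM in smooth muscle spots and 7.19 to 12.4 CPM in other spots. The skeletal muscle sum was higher in smooth muscle spots in 7 of 7 sections, and 23 of the 207 spots were among the top 5% for that list, while 2 of its 8 genes, Myh4 and Tnnc2, had no UMI there. Its part in the muscle signal was not tested. The mast cell protease genes Tpsb2 and Cma1 rose by log2 fold changes of 3.46 and 3.07, as 2 of 4 mast cell genes tested, while Kit and Hdc did not pass. Of the oviduct list, Tppp3, of microtubules, and Sox17, a transcription factor also of arterial endothelium, were higher (2 of 5 tested), while Foxj1, of cilia, had 14 UMIs and was not tested. Of 5 B and plasma cell genes tested 3 were higher in edgeR and 0 in DESeq2, and immunoglobulin genes share reads. Of 8 macrophage genes 2, the mannose receptor gene Mrc1 and Gpnmb, and of 5 nerve and glia genes Ncam1 were higher, and the myelin gene Mbp was lower. At middle depth no macrophage gene passed (0 of 7). All 11 mitochondrially encoded genes tested were lower (median log2 fold change -0.75), and the mitochondrial share of a spot's UMIs averaged 0.740 ± 0.546% in smooth muscle and 0.975 ± 0.685% in other spots, lower in 7 of 7 sections (exact sign-flip permutation test, n = 7, adjusted p = 0.0208). Of 11 immediate early genes, which can mark stress during tissue handling but also respond to other signals, 4 were lower and Atf3 was higher. Mrc1, Gpnmb, Ncam1, Mbp and Atf3 were named after their values were seen. No erythrocyte gene passed (0 of 3).

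The 20 largest positive fold changes outside the rule reached beyond the lists, and all were higher in 7 of 7 sections, as their choice required. Rergl, which encodes a Ras-like protein, led with a log2 fold change of 4.29 (SE 0.38, adjusted p = 3.41e-09). It had 15.4, 42.7 and 6.49 CPM in the smooth muscle spots of aged sections 1, 2 and 4, and 10.4, 17.3, 69.6 and 19.6 CPM in those of young sections 1 to 4, from 59 UMIs, against 1.201 ± 0.406 CPM in other spots. Pi16, a gene of fibroblasts around vessels, followed with 4.18 (SE 0.41, adjusted p = 2.04e-08, 41 UMIs).

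Other muscle genes among the 20 were Hspb7, a small heat shock protein (log2 fold change 3.89), Mustn1, a nuclear protein of muscle and skeleton (3.39), Asb2, a ubiquitin ligase subunit that targets filamins (2.83), P2rx1, an ATP-gated channel of smooth muscle (2.89), and Slc2a4, the insulin-regulated glucose transporter (3.01). Mustn1 was the most even of these, at 180 ± 57.6 CPM in smooth muscle and 14.8 ± 2.94 CPM in other spots. The remaining ones were Nptx2, a secreted pentraxin, Myoc, the secreted protein myocilin, Tspan2, a tetraspanin, and Stmn2, a microtubule regulator, with the fibroblast and matrix genes Dpt and Postn, and the genes given above (Pln, Pdlim3, Actg2, Tpsb2, Kcnmb1, Myl9 and Jph2). Postn, the matrix protein periostin, rose by 2.76 over all spots (adjusted p = 8.61e-07) but by 0.77 among interior spots more than 2 steps from the section edge (adjusted p = 0.191).

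The 10 largest negative fold changes were led by Olfr810 (-3.94), D7Ertd128e (-2.77) and Rabl3 (-2.68), each with 3 UMIs in smooth muscle spots. Cdkn2b, a cell cycle inhibitor, averaged 25.3 ± 15.3 CPM in smooth muscle spots and 137 ± 46.3 CPM in other spots (log2 fold change -2.61, SE 0.17, adjusted p = 2.71e-11). Lgr5, a receptor for R-spondins, averaged 13.3 ± 9.87 CPM, against 58.2 ± 36.8 CPM in other spots (log2 fold change -2.43, SE 0.23, adjusted p = 1.36e-08). Onecut2, Kcnj16, Gal3st2c, Nmrk1 and Hist2h3c2 had log2 fold changes from -2.48 to -2.33. All 10 were lower in 7 of 7 sections, again as their choice required.

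The signal fell off within a few spots. Summed over the 5 rule genes, the level averaged 7336 ± 1673 CPM in the smooth muscle spots of 7 sections, 1534 ± 239 CPM in the spots touching them, and 832 ± 261, 629 ± 265 and 509 ± 147 CPM at 2, 3 and at least 4 steps. Since the rule cut on these genes, the drop at the first step is in part set by the choice. The contractile list, which the rule did not use, had 12680 ± 1335 CPM at 0 steps, 5992 ± 584 CPM at 1 step and 4326 ± 373 CPM at 4 or more. Its genes share cells with the rule genes, so that its drop at the first step is in part set by the choice too. The ovarian stroma list fell more slowly, with 2386 ± 1026, 1566 ± 782, 1124 ± 528, 903 ± 388 and 633 ± 137 CPM from 0 to at least 4 steps. The corpus luteum list ran the other way, from 3340 ± 1757 CPM at 0 to 14900 ± 6162 CPM at 4 or more steps. RNA can spread between neighbouring spots on such arrays, and its part here was not tested.

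**Figure D4:**
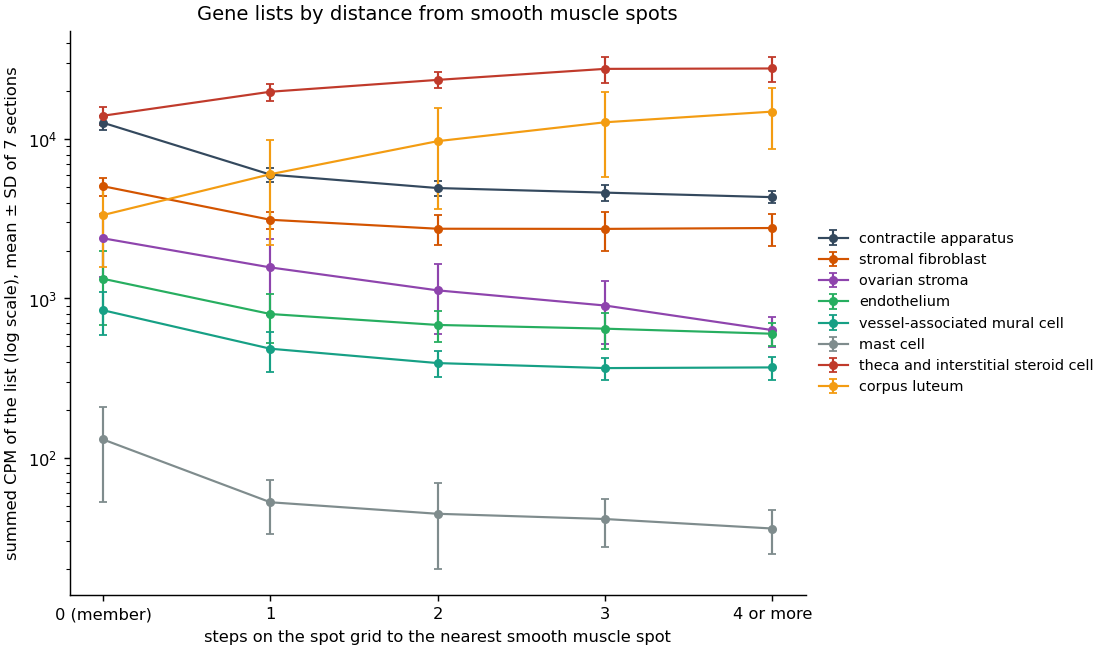
Summed CPM of each gene list, on a log axis, by the number of grid steps to the nearest smooth muscle spot, as the mean of 7 sections with bars of 1 SD. The contractile, mural, endothelial, stromal and mast cell lists are highest at 0 steps, and the theca and corpus luteum lists are lowest there.

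Smooth muscle spots lay in 84 patches of touching spots, of which 47 were single spots and 10 held at least 5 spots, with 95 spots between them. In 7 of 7 sections a neighbour of a smooth muscle spot was more often also one, with 14.9 to 52.6% of their neighbours, than a neighbour of another spot, with 2.33 to 10.1%. The patches were not of one kind. The 16 spots of the largest patch of aged section 4, near its edge, had 2744 CPM of Des, 1237 CPM of Cnn1 and 1274 CPM of Actg2. The 9 spots of the largest patch of young section 2, also near the edge, had 3454 CPM of Des, 1756 CPM of Cnn1 and 1022 CPM of Actg2.

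Patches inside the sections looked different. The 18 spots of the largest patch of young section 3 had 197 CPM of Des, 180 CPM of Cnn1 and 67.4 CPM of Actg2, beside 3038 CPM summed over the endothelial list. The 14 spots of the largest patch of young section 1 had 65.6, 274 and 137 CPM of the same genes. Acta2 did not follow this division, with 3330 and 2449 CPM in the patches of aged section 4 and young section 2, and 3207 and 3186 CPM in those of young sections 3 and 1. The endothelial sum varied among inner patches. It was 1617, 599 and 910 CPM in those of 14, 7 and 6 spots of young section 1, and 2730 and 2141 CPM in those of 5 spots of young section 4. In the edge patches of aged section 4 and young section 2 it was 846 and 643 CPM. The patches were picked out after their values were seen, and no test was made between them.

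Split by position, 72 smooth muscle spots lay within 2 steps of the section edge and 135 further inside. Actg2 was higher at the rim than in the interior in 7 of 7 sections, with a median of 847 CPM (124 to 1315) at the rim and 217 CPM (0 to 394) inside. In aged section 2 this was 235 CPM from 18 UMIs at the rim and 229 CPM from 20 UMIs inside, which is no difference beyond counting error, and the young section 3 values rest on 16 UMIs at the rim and 6 inside. Des was higher at the rim in 6 of 7 sections, with medians of 1043 CPM at the rim and 220 CPM inside. Acta2 was higher at the rim in 4 of 7 sections. In the other spots Actg2 was 40.4 CPM at the rim and 34.1 CPM inside by median. Notch3 and the summed mural list ran the other way and were higher inside in 6 of 7 sections, with medians of 61.7 CPM at the rim and 114 CPM inside for Notch3. The other spots showed the same, with the mural list higher inside in 7 of 7 sections and Notch3 in 6 of 7. Counting error limits these counts of sections. In the smooth muscle spots of young section 2 Notch3 had 32.1 CPM at the rim and 36.1 CPM inside. The interior value of aged section 1 rests on 1 spot with 9526 UMIs. Pcp4, a calmodulin-binding protein gene named here after its values were seen, was at 0 in the interior smooth muscle spots of all 7 sections and reached 113 and 122 CPM at the rims of aged section 4 and young section 2. Aged section 1 had 1 interior smooth muscle spot, and the split was made after the patches had been seen, so that it is a description without a test. Over the 207 spots Spearman rho was 0.43 between Des and Actg2 and -0.02 between Des and Acta2, among spots that share libraries, differ in depth and were cut on a sum that holds Des and Acta2. Within sections the pairs were alike, with rho positive in 5 of 7 sections for each (-0.37 to 0.84 with Actg2 and -0.28 to 0.80 with Acta2). Median steps to the edge averaged 3.00 ± 1.29 in smooth muscle and 2.86 ± 0.69 in other spots (exact sign-flip permutation test, n = 7, p = 1.00). The median was higher in smooth muscle spots in 2 sections, lower in 1 and tied in the rest, too few untied sections for the test to decide. Sections differed: 61.5% of smooth muscle and 31.8% of other spots lay at the outermost step in aged section 1, against 3.1% and 23.8% in young section 1.

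**Figure D5:**
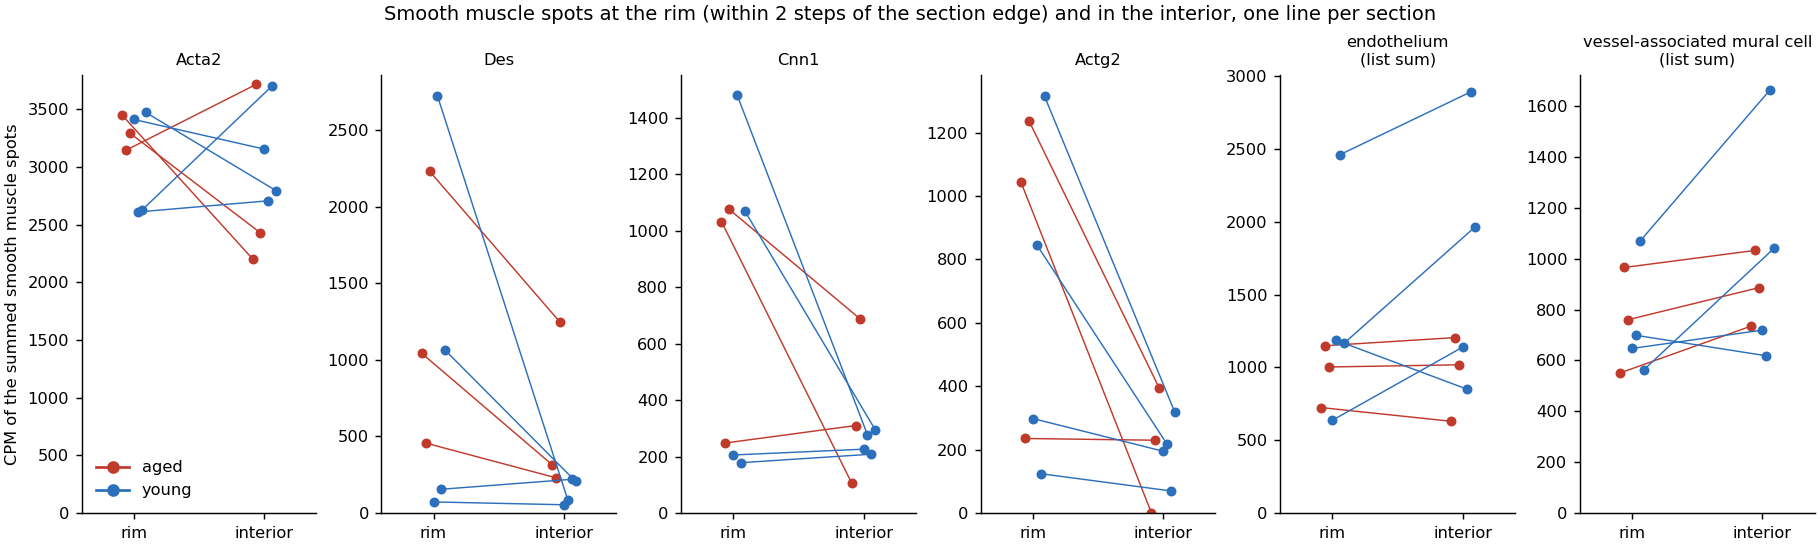
CPM of the summed smooth muscle spots within 2 steps of the section edge (rim, left) and further inside (interior, right), for 4 genes and 2 gene lists, with a line for each of 7 sections in red (aged) or blue (young). Actg2 is higher at the rim in 7 of 7 sections, by little in 1 aged section, and Des in 6 of 7, Acta2 in 4 of 7, and the mural list is higher inside in 6 of 7. The endothelial list is higher inside in 5 of 7, with medians of 1149 CPM at the rim and 1140 CPM inside.

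Age was compared within the smooth muscle spots, 3 aged against 4 young sections. Of 4505 genes tested 2 were called (0.0444%), both higher in aged sections (edgeR, aged over young, adjusted p below 0.05), while 235 had an unadjusted p below 0.05 and DESeq2 called 10. Without capture area 3 edgeR called 6, 5 of them higher in aged sections. No gene of the contractile (19 tested), scaffold (18), signalling (8) or regulator (7) list passed, with median log2 fold changes of 0.12, 0.25, -0.15 and 0.17, against 0.00 over all genes. Spots of both ages had passed the same cut on the rule genes, which can level genes of the same cells between ages. Actg2 shows the spread: its 992, 232 and 1071 CPM in aged and 208, 459, 102 and 641 CPM in young sections overlap.

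Malat1, a long nuclear RNA, had 812, 898 and 292 CPM in the smooth muscle spots of aged sections 1, 2 and 4, and 129, 153, 153 and 128.3 CPM in those of young sections 1 to 4, with no overlap (log2 fold change 2.37, SE 0.33, edgeR adjusted p = 0.0184). mt-Nd3, a mitochondrially encoded subunit of complex I, had 185, 85.5 and 110 CPM in aged and 37.7, 39.5, 41.8 and 35.9 CPM in young sections (log2 fold change 1.84, SE 0.30, edgeR adjusted p = 0.0375). In the other spots of the same sections Malat1 had 921, 1029 and 301 CPM in aged and 569, 200, 554 and 179 CPM in young sections. All 10 mitochondrially encoded genes tested had positive fold changes in smooth muscle spots (median log2 fold change 1.42). Their summed level, which moves with RNA quality as well as with cell content, was 9432 to 21460 CPM in aged and 3874 to 7690 CPM in young sections, and its part in these results was not tested. In the other spots of the same sections this sum was 13190 to 25410 CPM in aged and 5980 to 19690 CPM in young sections, with overlap. Both calls rested on few sections: without young section 1, 2 or 4 in turn edgeR called no gene, with 160, 225 and 218 genes at an unadjusted p below 0.05. Without aged section 1 it called 1 gene, which was neither of these, and without aged section 2 it kept 1 of them. Without aged section 4 or young section 3 both calls were kept.

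With the capture area as a block, which leaves out young section 3 for want of a partner, 15 genes were called, 11 higher and 4 lower in aged sections. They held both genes above, and the others were named after this fit was seen. Among the higher ones were the immunoglobulin genes Igkc and Igha, the complement genes C3 and C4b, the lysozyme gene Lyz2, Gpnmb of macrophages and H2-D1 of class I antigen presentation, with mt-Nd1 and the lipase gene Lipg. C3 had 180, 525 and 299 CPM in aged and 23.4, 121, 102 and 82.7 CPM in young sections (log2 fold change 2.29, SE 0.27, edgeR adjusted p = 0.000881 with the block and 0.164 without). Igkc had 668, 3799 and 662 CPM in aged and 26.0, 61.7, 914 and 8.70 CPM in young sections, where young section 3, which the block leaves out, overlapped the aged ones. The lower ones were the oocyte genes Zp3 and Padi6 with Serpina5 and AU021092. Zp3 had no UMI in the aged smooth muscle spots, and its levels were 45.5, 141, 0 and 51.1 CPM in young sections. The summed B and plasma cell list ran from 812 to 4697 CPM in aged and from 31.5 to 1466 CPM in young smooth muscle spots, the macrophage list from 586 to 761 CPM in aged and from 420 to 509 CPM in young ones, and the oocyte list from 12.98 to 87.4 CPM in aged and from 37.1 to 506 CPM in young ones. Their part in these calls was not tested.

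Whether age differences in smooth muscle spots differed from those in other spots was tested by an interaction term over 13186 genes, of which edgeR called 2 (0.0152%), with 780 at an unadjusted p below 0.05, and DESeq2 called none, with 393. Without capture area 3 edgeR called 6, both of these genes among them. Rnase1, a secreted ribonuclease of endothelium, had 66.8, 6.11 and 6.49 CPM in smooth muscle spots of aged and 32.5, 7.41, 13.9 and 4.35 CPM in those of young sections, and in other spots 6.36, 3.00 and 2.84 CPM in aged against 60.4, 17.2, 8.65 and 13.5 CPM in young sections (log2 difference 3.64, SE 0.65, edgeR adjusted p = 0.0161). Without aged section 1 the difference was 1.98 (edgeR adjusted p = 0.955). Farsb, a subunit of the phenylalanine tRNA synthetase, had 10.3, 0 and 51.9 CPM in smooth muscle spots of aged and 55.8, 64.2, 51.0 and 39.2 CPM in those of young sections, and in other spots 34.9, 34.8 and 330 CPM in aged against 43.2 ± 5.29 CPM in young sections (log2 difference -2.94, SE 0.43, edgeR adjusted p = 0.000671). Without aged section 4, the library with 330 CPM, Farsb no longer passed (adjusted p = 0.525).

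Over whole sections no gene changed with age in edgeR (0 of 14044, 0%), while 392 had an unadjusted p below 0.05 and DESeq2 called 6. Without capture area 3 edgeR again called none, with 1261 at an unadjusted p below 0.05. Acta2 had 428, 318, 236 and 244 CPM in aged sections 1 to 4, and 785, 416, 244 and 597 CPM in young sections 1 to 4, with overlap between the ages. Its log2 fold change was -0.72 (SE 0.39, edgeR adjusted p = 1.00), that of Myh11 -0.75 (SE 0.35), that of Tagln -0.52 (SE 0.48), that of Cnn1 -0.33 (SE 0.55) and that of Des 0.36 (SE 0.44), and none passed. A p that misses the threshold does not show equal levels.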

How the data were processed

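Ovary sections were measured with the 10x Visium assay. The values deposited by the authors are UMI counts for each gene in each spot, not normalized. Spot positions were deposited too (other units), and image scale factors were not used. The submitters' processing notes list Space Ranger 1.2.1 and build mm10. Annotation and strand use were not given in the sources used here. Ages were assigned by the side that the labels name for each section, with spots split at the widest gap within the middle 60% of pixel positions, and never by expression. If an image was mirrored relative to the labels, the ages of that area would be swapped, which was not tested, in capture area 3 in particular.

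Counts were summed per section over smooth muscle spots and over other spots of at least 1000 UMIs. edgeR 4.0.16 (R 4.3.3, limma 3.58.1; TMM, filterByExpr, quasi-likelihood test, Benjamini-Hochberg 0.05) compared the sums, with the section as a block between spot classes and age as the only term between ages. The 5 rule genes were left out of the table and totals in fits on spot classes. CPM use all UMIs without TMM factors, so that their ratio can differ from the fold change, and limits from counts of 0 cover counting error only. Sections of a number share a capture area, which pairs them, and smooth muscle sums of the same number, taken as deviations from their age mean, correlated across genes at 0.089, 0.118 and 0.0316 (areas 1, 2 and 4).

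Alternatives were DESeq2 1.42.0, other scalings, no filter, other cuts, sections left out, the block and, chosen after seeing the data, spots of middle depth, interior spots and other spots not touching smooth muscle spots. Fits were tested on simulated counts. Members and lists were chosen with earlier results of these data known. Named were the rule genes, the extremes of the muscle lists and their genes that did not pass, the 20 highest and 10 lowest fold changes with 1 direction in every section, called genes by age, and up to 4 genes of each other list by UMIs. Gene positions are from GENCODE M21 and promoter sequences from RefSeq. Python 3.11.15 (numpy 2.4.6, pandas 2.3.3, scipy 1.17.1, matplotlib 3.10.9) was used.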

Additional observations from a re-analysis of the deposited data

Results flagged for a closer look

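Among 59 sets of section values checked for a lone section, 4 were flagged, and chance flags about 1 in 20. The smooth muscle spots of 3 aged sections were too few for this check, so that within them it covers young sections only. Rergl stood at 69.6 CPM in the smooth muscle spots of young section 3, against 10.4 to 19.6 CPM in the other young sections, and Stmn2, a microtubule regulator, at 134 CPM there, against 17.4 to 27.2 CPM. The summed B and plasma cell list stood at 1466 CPM in the same spots, against 31.5 to 81.5 CPM. Rabl3 stood at 2.60 CPM in young section 1 and at 0 in the other young sections. The age difference of Rnase1 was 3.64 larger (log2) in smooth muscle spots than in other spots, and that of Farsb was -2.94, as tested by the interaction term.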

How the results depend on the processing

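The number of genes that separated smooth muscle from other spots, 2261, ran from 1716 to 2233 with a section left out and was 523 at middle depth. Of 536 values of its 30 named genes under alternatives, 535 kept their direction and their side of the threshold and Postn lost its call among interior spots. These values are not independent checks. Asking for at least 10 smooth muscle spots repeats the main fit, and leaving out capture area 3 repeats the fit without young section 3. The genes were chosen for 1 direction in every section, and settings that did not test a gene were not counted. The count by age within smooth muscle spots was small and moved with most settings. Against 2 it was 1 with library size scaling and with the top 3%, 10 with DESeq2, 65 without a filter, 6 without capture area 3, 15 with the replicate block, and 0 with the top 10% and at middle depth (377 and 190 genes at an unadjusted p below 0.05), and it ran from 0 to 8 with a section left out. The interaction count, 2, was 0 with DESeq2 and with the top 3%, 16 without a filter, 6 without capture area 3 and 5 with the top 10%, and ran from 1 to 13 with a section left out. The whole-section count was 6 with DESeq2 and 0 with the replicate block, and the p of the share by age was 0.25 with the block. The difference in steps to the edge turned to -0.29 with the top 3%. The cause of these moves was not tested. By age, the median over all genes was -0.11 with library size scaling, against 0.00. Depth limits the smooth muscle spots: 4505 genes could be tested by age there, against 14044 in whole sections.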

Other observations

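The smooth muscle spots of young section 3 differed from those of the other sections in several genes of vessels, singled out after their values were seen. Sox17 had 167 CPM there, against 10.3 to 51.9 CPM in the other 6 sections with smooth muscle spots, Vwf, the clotting factor carrier of endothelium, 176 CPM against 15.4 to 91.4 CPM, and Pln 78.9 CPM against 7.79 to 22.2 CPM. Actg2 had its lowest level in the same spots, at 102 CPM. The other spots of young section 3 leaned the same way. Their summed endothelial list had 801.7 CPM, against 486.2 to 682.3 CPM in the other spots of those 6 sections. Their mural list had 459.9 CPM against 304.4 to 424.9 CPM, and their Actg2 was the lowest too.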
